A study of Homo sapiens with 24 samples.

Results

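The cyclin-dependent kinases described here are CDK1, CDK2, CDK4, CDK6, CDK7, CDK9, CDK10, CDK11B, CDK12 and CDK13, 10 of the 64486 genes in the annotation. Their rows were taken as every row of the splicing tables that lies on the strand of a gene and within its span in GRCh37. That rule gave 1511 of 1830076 rows, at 508 splice sites, of which 181 had reads in all 24 samples. The rule for rows used positions and names only, and no measured value. The genes themselves were chosen with earlier results of these data known, and the study had already named CDK10 for its altered splicing. Tests of CDK10 are therefore not independent of that choice.

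The samples were HCT-116 cells, an established colorectal carcinoma line, that expressed either wild-type PHF5A (WT) or PHF5A carrying the Y36C substitution. PHF5A is a subunit of SF3b, the complex that helps the spliceosome hold the branch point of an intron, and E7107 is a pladienolide derivative that binds SF3b. Cells of each genotype received the solvent DMSO or E7107 for 6 h, which gave 4 groups of 6 samples (each genotype with each treatment). The labels give no dose. The study's methods list more than 1 E7107 dose for RNA sequencing, and the labels do not say which of them these samples had. Both genotypes were made from the same parental line by lentiviral expression of PHF5A, so every group also had the line's own PHF5A gene. The study's methods give 6 replicate treatments for each condition before lysis. They do not say whether these came from cultures grown apart or on different days, so p-values measure the spread between replicate treatments. Neither the methods nor the labels name more than 1 engineered line per genotype for these samples. A difference between genotypes therefore cannot be told apart from a difference between the engineered lines. The RNA was poly(A)-selected and measured in bulk, so a share carried by every cell and a larger share carried by some cells cannot be told apart.

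Cyclin-dependent kinases are serine/threonine kinases that work only with a cyclin bound. CDK1, CDK2, CDK4 and CDK6 drive the cell cycle: CDK4 and CDK6 act with D cyclins in G1, CDK2 with cyclins E and A, and CDK1 with cyclins A and B at mitosis. CDK7, CDK9, CDK11B, CDK12 and CDK13 act mainly in transcription and RNA processing, by phosphorylating RNA polymerase II or splicing factors, and CDK7 also activates the cell-cycle kinases as part of the CDK-activating kinase. CDK10 pairs with cyclin Q (CCNQ) and is kept apart here, since it fits neither class well.

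The measure is the percent spliced in (PSI), the share of reads at a splice site that use a given junction. A boundary row counts reads that run from the exon into the intron, so its PSI is the retention seen at that end of the intron. A skipping row is a junction that jumps over at least 1 exon of the gene's reference transcript. A PSI is a share of the reads at its site and does not tell how much RNA of the gene was present.

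The skipped exons that the results turn on are shown first, with the last 50 bases of the intron before and the opening 20 bases of the intron after them. The sequences are read 5′ to 3′ from GRCh37, the exon is in capitals and the intron in lower case. Exon 2 of CDK2 and exon 4 of CDK10 both code for the helix through which these kinases grip their cyclin, and exon 2 of CDK10 codes for part of the loop that holds ATP.
CDK10 exon 2, chr16:89755610-89755752, plus strand: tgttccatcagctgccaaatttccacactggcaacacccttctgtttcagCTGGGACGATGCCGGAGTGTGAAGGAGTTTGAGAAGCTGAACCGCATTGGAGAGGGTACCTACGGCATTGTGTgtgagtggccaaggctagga
CDK10 exon 4, chr16:89757801-89757973, plus strand: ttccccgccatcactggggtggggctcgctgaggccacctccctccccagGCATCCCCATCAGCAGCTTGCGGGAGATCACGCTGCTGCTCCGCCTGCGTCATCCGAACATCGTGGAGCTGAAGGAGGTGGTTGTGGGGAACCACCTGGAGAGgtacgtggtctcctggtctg
CDK2 exon 2, chr12:56361591-56361738, plus strand: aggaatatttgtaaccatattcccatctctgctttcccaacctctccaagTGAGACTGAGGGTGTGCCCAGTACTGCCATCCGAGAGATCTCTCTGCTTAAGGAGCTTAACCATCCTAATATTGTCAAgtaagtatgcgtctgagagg
CDK12 exon 9, chr17:37671934-37672081, plus strand: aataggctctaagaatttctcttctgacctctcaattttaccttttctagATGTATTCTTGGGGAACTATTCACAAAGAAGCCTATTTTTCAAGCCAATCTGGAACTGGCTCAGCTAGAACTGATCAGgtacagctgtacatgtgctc
The exons of this group are short. Exon 2 of CDK10 has 73 bases and exon 4 has 103 bases, and neither length is a multiple of 3. Exon 2 of CDK2 and exon 9 of CDK12 have 78 bases each, a multiple of 3. All of them are wholly coding.

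The introns whose retention stood out are shown whole, with the intron in capitals and 10 bases of each flanking exon in lower case. They are shown because CDK10 introns 7 and 10 were retained more in Y36C than in WT cells under E7107, and CDK9 introns 4 and 5 because they hold that gene's boundary with the largest change in WT cells and its boundary with the largest rise in Y36C cells.
CDK10 intron 7, chr16:89759725-89759815, plus strand: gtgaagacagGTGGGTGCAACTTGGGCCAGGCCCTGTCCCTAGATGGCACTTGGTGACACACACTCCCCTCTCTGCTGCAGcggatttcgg
CDK10 intron 10, chr16:89761187-89761348, plus strand: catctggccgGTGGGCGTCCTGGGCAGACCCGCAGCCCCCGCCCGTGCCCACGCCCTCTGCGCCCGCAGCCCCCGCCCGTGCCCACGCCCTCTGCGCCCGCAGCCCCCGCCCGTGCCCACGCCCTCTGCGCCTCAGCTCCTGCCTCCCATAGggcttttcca
CDK9 intron 4, chr9:130550383-130550502, plus strand: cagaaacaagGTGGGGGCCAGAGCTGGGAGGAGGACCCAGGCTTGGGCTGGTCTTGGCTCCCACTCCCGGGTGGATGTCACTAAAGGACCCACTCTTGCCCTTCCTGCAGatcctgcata
CDK9 intron 5, chr9:130550655-130550832, plus strand: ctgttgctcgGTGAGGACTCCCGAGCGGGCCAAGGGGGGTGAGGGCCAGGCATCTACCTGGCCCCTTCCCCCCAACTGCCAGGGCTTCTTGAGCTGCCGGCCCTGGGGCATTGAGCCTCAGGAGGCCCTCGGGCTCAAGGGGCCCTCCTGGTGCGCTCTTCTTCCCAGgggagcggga
All of these introns start with GT and end with AG. They are short, at 71, 142, 100 and 158 bases, and their GC contents are 62.0%, 80.3%, 65.0% and 69.6%. In CDK10 intron 10 a unit of 34 bases is repeated without a mismatch over 104 bases.

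The files hold no counts, and the sites at which a sample has reads are the only sign of its depth, so no interval can be given for a single PSI. WT E7107 samples had reads at 281164 to 283548 sites and at 232 to 254 sites of the kinase genes, fewer than the 328458 to 340081 sites and 271 to 291 kinase sites of the other groups. No pair of samples held identical values. Of the markers of colon epithelium, EPCAM, CDH1, KRT8 and KRT18 had reads at 100% of their sites in every sample, while CDX1 and VIL1 had no rows listed. No rows were listed for the 4 blood markers, 3 of 4 fibroblast markers and 2 of 3 endothelial markers. COL1A1 had reads at 94.4% to 100% of its 90 sites, and its part in the results was not tested.

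No difference between the genotypes in DMSO passed the test in these genes. No row of the kinase genes passed an adjusted p of 0.05 in limma among 410 tested, and 50 of them had an unadjusted p of 0.05 or less. Over all rows tested, 0.270% were called in either direction and 9.92% had such an unadjusted p. Averaged per gene, neither the retention nor the skipping share of any kinase was called, against 1.03% and 0.482% of all genes. An unadjusted p of 0.05 or less was found in 1 of 10 genes for retention and 0 of 10 for skipping. That gene was CDK10, whose mean retention was 2.66 points higher in Y36C cells (adjusted p = 0.208). Its difference was larger than that of 97.1% of all genes. Of 84 CDK10 rows tested, 21 had a low unadjusted p, and the values of its introns 7 to 10 are given below.

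E7107 raised intron retention in every kinase of the set in WT cells. The mean over the exon–intron boundaries of the reference transcript passed the test in 10 of 10 genes, where 72.1% of all 11207 genes did. The median change over the kinases was 21.7 percentage points, against 6.65 points over all genes. In Y36C cells the mean rose in 5 of 10 kinases (CDK2, CDK4, CDK9, CDK10 and CDK11B), where 47.2% of all genes rose, and the median change was 0.74 points against 0.91 points.

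**Figure D1:**
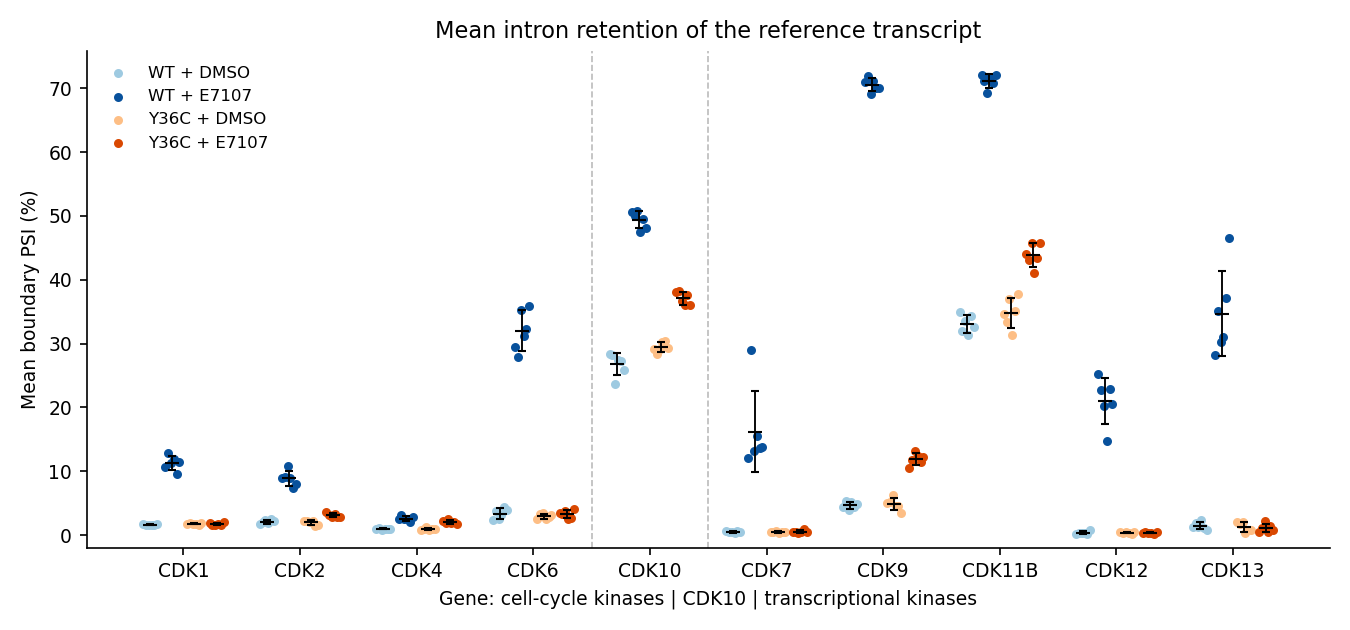
Mean boundary PSI per gene (y axis, percent) for the 10 kinase genes (x axis) in the 24 samples. Points are samples, bars are mean ± SD (n = 6), and dashed lines set CDK10 apart from the cell-cycle kinases on its left and the transcriptional kinases on its right. WT E7107 samples of CDK9 lie between 69.1% and 72.0%, above all samples of the other 3 groups of that gene.

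Among the cell-cycle kinases, CDK6 had the largest rise in WT cells. Its retention was 2.33%, 3.48% and 4.39% (lowest, median and highest sample) in WT DMSO and 27.8%, 31.8% and 35.9% in WT E7107, so the groups do not overlap. The log odds rose by 2.38 (SE 0.10, adjusted p = 1.55e-10). In Y36C cells CDK6 had a mean of 2.94% ± 0.39 in DMSO and 3.29% ± 0.62 in E7107 (SD, n = 6, adjusted p = 0.394). CDK1, the mitotic kinase, followed with 1.51%, 1.63% and 1.72% in WT DMSO and 9.57%, 11.3% and 12.9% in WT E7107 (adjusted p = 1.49e-11). Its Y36C samples lay between 1.53% and 1.98% under E7107 and between 1.63% and 1.86% in DMSO, and they overlap (adjusted p = 0.677).

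CDK2 and CDK4 moved least in WT cells and also rose in Y36C cells. CDK2 had a mean of 2.09% ± 0.31 in WT DMSO and 8.87% ± 1.20 in WT E7107 (SD, n = 6, adjusted p = 4.84e-09), and its Y36C mean went from 1.99% ± 0.34 to 3.12% ± 0.31 (adjusted p = 6.18e-04). CDK4, the G1 kinase, had the smallest rise of the set in WT cells, from 0.98% ± 0.06 to 2.58% ± 0.33 (adjusted p = 1.78e-07). In Y36C cells it went from 0.94% ± 0.16 to 2.07% ± 0.30 (adjusted p = 2.36e-05). Its rise in WT was larger than that of only 28.9% of all genes. CDK4 was also the only kinase of the set whose change in retention was not called as different between genotypes (interaction, adjusted p = 0.0865), although it was without WT E7107 replicate 5 (adjusted p = 0.0335).

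Among the transcriptional kinases, the WT changes of CDK9, CDK11B and CDK13 lay above that of CDK6, at 65.9, 38.1 and 33.2 points, and those of CDK7 and CDK12 lay below it. CDK9, the kinase of the elongation factor P-TEFb, went from 3.94%, 4.65% and 5.30% (lowest, median and highest sample) in WT DMSO to 69.1%, 70.5% and 72.0% in WT E7107. This change of 65.9 points (log odds 3.69, SE 0.05, adjusted p = 2.96e-14) was larger than that of 97.7% of all genes. Y36C samples of CDK9 reached 10.5%, 12.1% and 13.2% under E7107 from 3.49%, 4.79% and 6.32% in DMSO (adjusted p = 1.95e-06), so the groups separate in both genotypes but at very different levels.

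CDK11B, a kinase linked to splicing, started high and reached 69.2%, 71.5% and 72.0% in WT E7107 from 31.3%, 33.1% and 35.0% in WT DMSO (adjusted p = 4.69e-12). In Y36C cells its mean rose from 34.9% ± 2.4 to 43.9% ± 1.8 (adjusted p = 1.20e-04). CDK11B has a near-identical neighbour, CDK11A, between which the counting may split reads, so its values are uncertain. The sources used here do not say whether the library kept strand, and genes on the opposite strand overlap CDK2, CDK4, CDK6, CDK10, CDK11B and CDK12, so reads of such partners cannot be told apart there. On the same strand, 14 rows of CDK6, 8 of CDK10 and 12 of CDK13 also lie within another gene. CDK11A itself rose by 46.2 points in the WT and 6.95 points in the Y36C genotype.

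CDK12 and CDK13, which act with cyclin K on elongating polymerase, rose in WT cells and were not called in Y36C cells, and the interaction was called for both. CDK12 had 0.13%, 0.29% and 0.77% in WT DMSO and 14.8%, 21.6% and 25.3% in WT E7107 (adjusted p = 4.00e-11), while its Y36C samples under E7107 lay between 0.22% and 0.44%. CDK13 had 0.83%, 1.27% and 2.32% in WT DMSO and 28.1%, 33.0% and 46.5% in WT E7107 (adjusted p = 3.53e-10), and 0.44% to 2.20% in Y36C E7107. The CDK13 mean rests on 10 sites with reads in all samples. CDK7 had 0.29%, 0.46% and 0.64% in WT DMSO and 12.2%, 13.7% and 29.0% in WT E7107 (adjusted p = 5.40e-09). The highest CDK7 value, replicate 2, stands apart, and without it the other 5 samples have a mean of 13.7% ± 1.2.

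In order of level, CDK11B and CDK10 led in WT DMSO and did not overlap each other or the rest. From CDK9 down to CDK4 the means went from 4.68% to 0.98%, and each gene overlaps its neighbour in that order. CDK7 and CDK12 lay below CDK4 without overlapping it, and overlap each other. In WT E7107 CDK11B and CDK9 overlap at the top, CDK10 stands alone at 49.4%, CDK13 and CDK6 overlap, each gene from CDK12 down to CDK2 overlaps its neighbour, and CDK4 stands alone at the bottom. Between genotypes under E7107, all 10 kinases had lower retention in Y36C cells, where 64.9% of all genes were lower. The call for CDK4, a difference of -0.52 points, was lost under 5 of 7 other settings (adjusted p from 0.054 to 0.0767). The interaction of genotype and treatment was called lower in 9 of 10, against 60.7% of all genes, with differences from -5.65 points in CDK2 to -58.8 points in CDK9.

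Single boundaries give the same account in more detail. In WT cells 143 of the 197 reference boundaries listed for the kinases passed the filter, and 126 of the 143 were called higher, where 73.7% of all boundaries tested were. In Y36C cells 110 passed the filter, 41 were called higher and 4 lower, where 30.4% of all were higher and 1.17% lower. A boundary can pass the filter through the group in which it is high, so these counts describe the tested boundaries and not all of them. The boundary with the largest change in WT lay in intron 4 of CDK9 at its 5′ end, with 0.0%, 0.0% and 2.14% in WT DMSO and 90.1%, 90.6% and 92.0% in WT E7107. In Y36C E7107 the same boundary had 0.0%, 2.53% and 5.97%, and it did not pass the filter for that comparison. CDK9 intron 5 was the boundary of that gene that rose most in Y36C cells, from 13.6%, 15.5% and 22.2% to 40.9%, 45.5% and 52.1% at its 3′ end (adjusted p = 8.46e-06).

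In the other genes the WT boundary with the largest change was the 3′ end of intron 2 in CDK1, which had a median of 0.65% in DMSO and 12.3% in E7107. For CDK2 it was the 3′ end of intron 6, with medians of 1.62% and 13.3%, and this boundary also had the largest rise of CDK2 in Y36C cells, from a median of 1.32% to 6.47% (adjusted p = 0.00107). For CDK4 it was the 3′ end of intron 6, with medians of 0.71% and 4.01%. CDK7 changed most at the 3′ end of intron 6, where the medians were 0.0% and 27.4%. CDK12 changed most at the 3′ end of intron 8, with 0.0% and 45.0%, and there the 6 E7107 samples spread from 10% to 83.3%. CDK11B changed most at the 3′ end of intron 1, with medians of 13% and 81.0%. In Y36C cells the largest called rise of CDK4 was at the 3′ end of intron 3 (0.96% to 3.11%), that of CDK11B at the 5′ end of intron 7 (42.9% to 91.7%) and that of CDK12 at the 3′ end of intron 13 (6.90% to 22.0%). The last 2 were called with adjusted p = 0.0364 and 0.0248. That of CDK1 was a rise of 0.425 points at the 5′ end of intron 6 (adjusted p = 0.038). Each of these 3 calls was lost under other settings, and the CDK12 site had reads in only 2 of 6 WT E7107 samples. The CDK1 and CDK12 boundaries had 0.0% in at least 1 Y36C DMSO sample. They passed the filter only through Y36C E7107, the group in which they were high, so their p-values are no support for a rise. CDK1 also held a fall: both ends of its intron 4 fell in Y36C cells, by 2.38 and 2.12 points (adjusted p = 0.00382 and 0.0041).

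CDK6 and CDK13 have very long introns, and there the ends of 1 intron could differ widely. At intron 2 of CDK6, of 58259 bases, the 5′ boundary had 80.5%, 84.6% and 91.2% in WT E7107 and the 3′ boundary 21.1%, 43.5% and 60%. At intron 4 of CDK6, of 54090 bases, the 5′ boundary had 48.2%, 55.6% and 68.8% and the 3′ boundary 0.0%, 0.0% and 8.33%. At intron 1 of CDK13, of 35746 bases, the 5′ boundary had 71.2%, 81.5% and 89.1% and the 3′ boundary 0.0%, 5.00% and 20%. In these 3 of 10 introns of at least 10 kb, the 5′ boundary was higher in 6 of 6 samples (two-sided exact sign-flip permutation test within samples, p = 0.03125, the smallest that 6 samples allow, and 0.104 after adjustment over the 10 introns). In 5 of the 10 introns the 3′ boundary had the higher mean instead. There the 5′ minus the 3′ mean was -15.9 points in CDK6 intron 5, -17 in CDK13 intron 5, -7.73 in CDK13 intron 7, -20.6 in CDK13 intron 9 and -3.27 in CDK7 intron 2 (exact p from 0.09375 to 0.5625). In WT DMSO the 5′ and 3′ boundaries of CDK6 introns 2 and 4 had medians of 0.0%. A mean over both ends of such an intron is therefore a mean of unlike values.

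Several introns of CDK10 were retained without the drug. The same held for CDK11B, whose introns 4, 5, 6 and 17 had a retention of 79.2% to 96.3% in WT DMSO. The mean retention of CDK10 was 23.6%, 27.3% and 28.4% (lowest, median and highest sample) in WT DMSO and 47.4%, 49.8% and 50.8% in WT E7107. This was a rise in log odds of 0.96 (SE 0.05, adjusted p = 2.04e-09). The Y36C samples rose from 28.3%, 29.3% and 30.4% to 36.1%, 37.1% and 38.2% (log odds 0.34, SE 0.03, adjusted p = 4.46e-06). The WT rise exceeded that of 75.3% of all genes and the Y36C rise that of 93.5%. The Y36C call was lost when the median over the 24 sites replaced the mean (adjusted p = 0.0661).

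The 12 introns fell into groups. Introns 3, 4, 5, 6 and 11 had mean PSI of 2.73% to 7.59% at either boundary in WT DMSO and of 24.0% to 50.4% in WT E7107. Introns 7, 8, 9 and 10 already had 45.2% to 77.9% in WT DMSO. Introns 7 and 8 were not called in WT cells, with changes from -8.36 to -0.75 points, whereas intron 9 rose by 12.6 and 17.6 points. At intron 10 the rise of 12.6 points at the 5′ end was called and that of 9.96 points at the 3′ end was not (adjusted p = 0.0831). Introns 1, 2 and 12 lay between, at 11% to 32.3% in WT DMSO. Under E7107 intron 12 rose by 39.93 and 41.05 points at its 5′ and 3′ ends in WT cells. In Y36C cells its ends changed by 3.44 and -0.82 points and were not called. The interaction was called at both of its ends (adjusted p = 2.55e-05 and 1.31e-07).

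**Figure D2:**
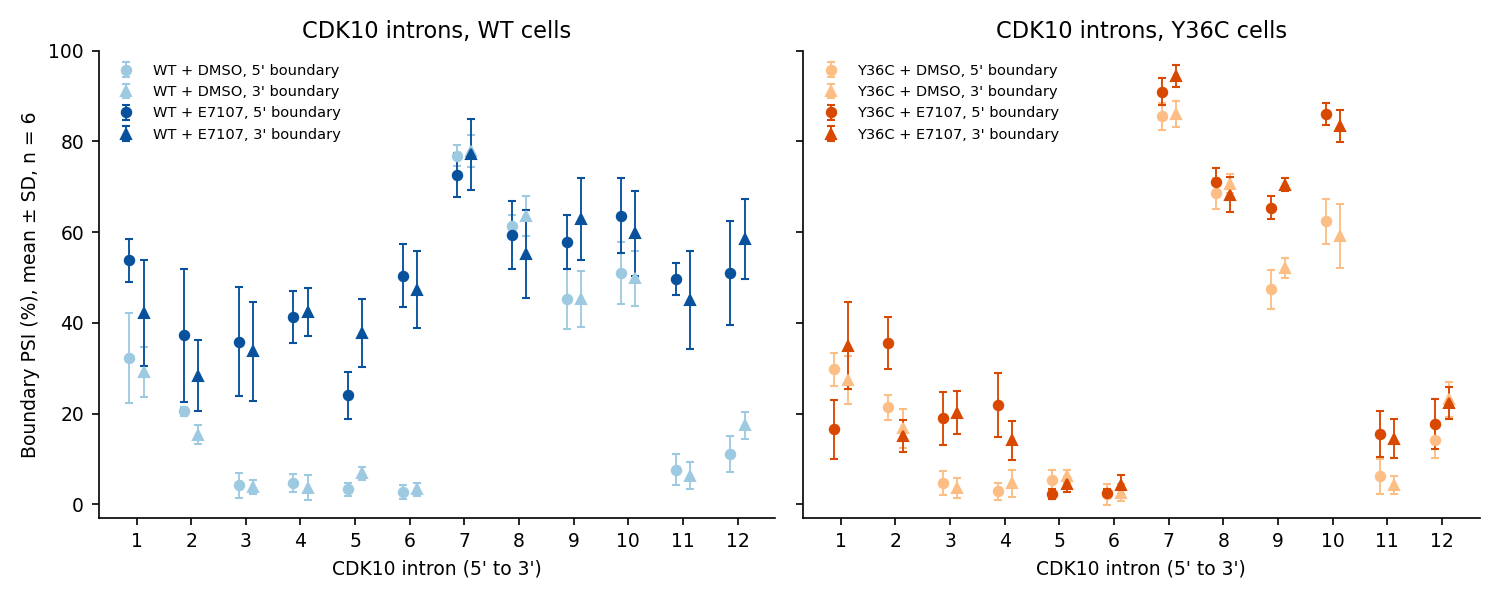
Boundary PSI (y axis, percent, mean ± SD, n = 6) at the 5′ boundary (circles) and 3′ boundary (triangles) of the 12 introns of CDK10 (x axis), in WT cells (left) and Y36C cells (right), with DMSO in the light and E7107 in the dark colour. Introns 1, 5, 6 and 12 are called higher under E7107 at both boundaries in WT cells and at neither in Y36C cells. Intron 10 rises to 86.0% and 83.5% in Y36C cells.

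Under E7107 the genotypes differed in opposite directions along the gene. Intron 6, the one with the largest rise in WT cells, had 0.69%, 2.69% and 4.38% at its 5′ boundary in WT DMSO and 44.4%, 48.3% and 64% in WT E7107. In Y36C cells the same boundary had 0.72%, 1.39% and 6.56% in DMSO and 1.52%, 2.26% and 3.65% in E7107, and these ranges overlap (interaction log odds -3.17, SE 0.34, adjusted p = 4.95e-08). Intron 5 likewise had 24.0% and 37.7% at its ends in WT E7107 and 2.17% and 4.39% in Y36C E7107. Its 5′ boundary fell in Y36C cells by 3.17 points (adjusted p = 0.0167). Introns 3, 4, 9 and 11 rose at both ends in both genotypes, and introns 2 and 10 did so at the 5′ boundary. The 5′ boundary of intron 1 rose by 21.5 points in WT cells (adjusted p = 0.00233) and fell by 13.2 points in Y36C cells (adjusted p = 0.0201). This boundary and the junction from exon 1 to exon 3, described below, are shares of the same splice site. Their changes are therefore not independent.

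Introns 7 and 10 went the other way. The 3′ boundary of intron 10 had 38.9%, 50.4% and 56.3% in WT DMSO and 47.1%, 60.6% and 72.6% in WT E7107, which overlap. The Y36C samples went from 47.3%, 60.3% and 68.1% to 78.5%, 83.8% and 88.8%, with no overlap (adjusted p = 1.95e-04), and this was the largest rise of a CDK10 boundary in Y36C cells. The 3′ boundary of intron 7 had 83.2%, 85.2% and 91.3% in Y36C DMSO and 90.8%, 95.3% and 96.9% in Y36C E7107 (adjusted p = 0.00329). Its WT samples had 75.3% to 84.1% in DMSO and 66.7% to 85.7% in E7107. The interaction was called at both boundaries of introns 7 and 10, with log odds from 0.73 to 0.96 and adjusted p from 0.00574 to 0.0086.

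Of the 143 kinase boundaries tested for the interaction, 105 were called lower and 4 higher, and those 4 are the ones just named. Over all boundaries 56.8% were lower and 9% higher. Between the genotypes under E7107, 115 of 142 kinase boundaries were lower in Y36C cells and 8 higher, against 65.1% and 11.8% of all. Of those 8, 7 lie in CDK10 introns 7 to 10 and the other is the 5′ end of CDK4 intron 5, which was 1.04 points higher. Part of that direct difference was there in DMSO, where the means of the boundaries of CDK10 introns 7, 8 and 10 were 7.10 to 11.4 points higher in Y36C than in WT cells without passing the test (adjusted p from 0.102 to 0.448). At the 5′ boundary of intron 7 the DMSO samples did not overlap, with 74.6% to 80.9% in WT and 83.4% to 91.4% in Y36C cells.

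For skipped exons the order of the genotypes differed from gene to gene. The mean skipping share at 3′ splice sites rose in 5 of 10 kinases in WT cells (CDK1, CDK2, CDK4, CDK7 and CDK12), where 25.8% of all 9549 genes rose. In Y36C cells it rose in 7 of 10 (CDK1, CDK2, CDK4, CDK6, CDK7, CDK10 and CDK12), where 56.3% of all genes rose. The Y36C call for CDK12 was lost with the replicate block (adjusted p = 0.0529). The interaction was called higher in CDK2, CDK4 and CDK10, against 30.3% of all genes, and lower in CDK12 and CDK13, against 13.2%. Under E7107 itself, CDK2, CDK4 and CDK10 were higher in Y36C than in WT cells, where 34.3% of all genes were, and CDK11B, CDK12 and CDK13 were lower, where 14.5% were. The differences of those last genes were -0.16, -4.29 and -6.02 points (adjusted p = 0.00726, 3.97e-07 and 0.0465). The CDK13 call was lost with the replicate block (adjusted p = 0.0698), with percent as the response (0.22), without WT E7107 replicate 2 (0.0824) and without Y36C E7107 replicate 4 (0.0739). The median difference over the 10 kinases was -0.03 points, against 0.30 points over all genes.

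**Figure D3:**
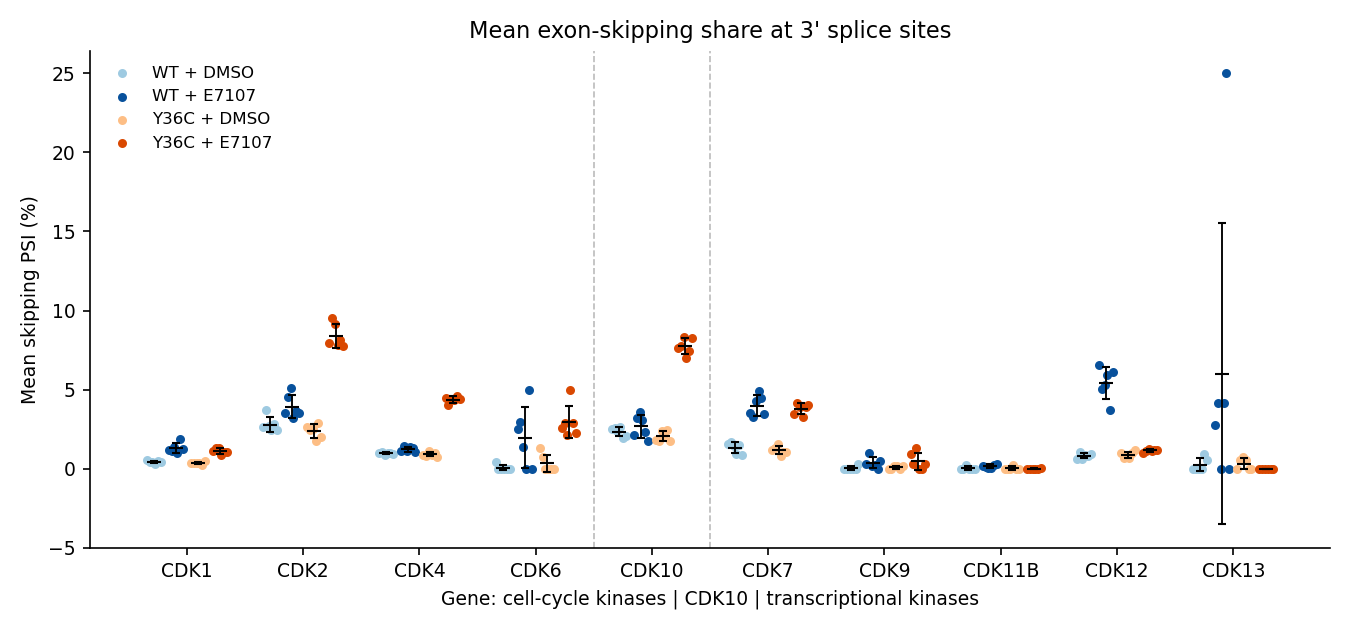
Mean share of reads at 3′ splice sites that skip at least 1 exon (y axis, percent) for the 10 kinase genes (x axis) in the 24 samples. Points are samples, bars are mean ± SD (n = 6), and the dashed lines set CDK10 apart. Y36C E7107 samples stand above the rest in CDK2, CDK4 and CDK10, WT E7107 samples in CDK12, and 1 WT E7107 sample of CDK13 lies at 25.0%.

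CDK10 had a mean skipping share of 1.93%, 2.44% and 2.63% (lowest, median and highest sample) in WT DMSO and 1.74%, 2.71% and 3.58% in WT E7107 (adjusted p = 0.55). In Y36C cells it rose from 1.74%, 1.97% and 2.48% to 7.02%, 7.69% and 8.35% (log odds 1.12, SE 0.05, adjusted p = 2.71e-08). The difference of the changes was 5.36 points (adjusted p = 5.75e-08). Cell-cycle kinases CDK2 and CDK4 moved the same way. CDK2 had a mean of 2.79% ± 0.49 in WT DMSO and 3.93% ± 0.72 in WT E7107, and 2.37% ± 0.44 and 8.38% ± 0.76 in Y36C cells. CDK4 had 0.97% ± 0.06 and 1.23% ± 0.15 in WT and 0.92% ± 0.14 and 4.38% ± 0.20 in Y36C cells.

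CDK12 went the other way. Its mean was 0.83% ± 0.18 in WT DMSO and 5.44% ± 1.01 in WT E7107 (adjusted p = 2.19e-07), and 0.89% ± 0.19 and 1.15% ± 0.10 in Y36C cells (adjusted p = 0.028). CDK1 rose by 0.869 points and CDK7 by 2.66 points in WT cells, and by 0.775 and 2.63 points in Y36C cells. For CDK7 the interaction had adjusted p = 0.84, with a difference of log odds of 0.03 (SE 0.10). CDK13 had 0.0%, 3.47% and 25.0% in WT E7107, and the mean of 6.02% rests on replicate 5. Without it the mean is 2.22% ± 2.11 (n = 5), and the CDK13 interaction (adjusted p = 0.0397) was lost without WT E7107 replicate 2 (adjusted p = 0.0597) and without Y36C E7107 replicate 4 (adjusted p = 0.0515).

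The skipping of CDK10 came from exons 2 and 4. The junction from exon 1 to exon 3, chr16:89753206-89756960 as the intron it removes, had 18.7%, 25.5% and 31.3% of the reads at the 5′ splice site of exon 1 in WT DMSO and 18.2%, 30.6% and 39.0% in WT E7107. The WT groups overlap (adjusted p = 0.506). In Y36C cells it rose from 14.7%, 22.5% and 29.4% to 53.3%, 64.2% and 77.2%, with no overlap (adjusted p = 5.09e-05, interaction log odds 1.66, SE 0.27, adjusted p = 2.25e-05). The rise of its mean, 42.0 points, and that of 41.8 points for CDK12 exon 9 in WT cells were the largest of called skipping junctions in the 10 genes. These 2 rises were nearly equal. Exon 2 is thus left out of part of the CDK10 RNA without the drug in both genotypes.

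The fates of reads at the acceptor of exon 3 show what the junction replaced. In Y36C cells reads from exon 2 fell from 53.4%, 60.9% and 65.6% in DMSO to 21.7%, 29.0% and 32.1% in E7107, a description with no test of its own. Reads that skipped exon 2, from any upstream donor, went from 14.6%, 20.1% and 23.3% to 54.3%, 55.9% and 57.3%. The retained share at that acceptor was 16.7% ± 4.3 in DMSO and 15.0% ± 3.5 in E7107 (SD, n = 6, adjusted p = 0.681). In WT cells the skipping share there was 22.3% ± 2.7 and 24.0% ± 5.4, and the retained share rose from 15.3% ± 2.1 to 28.3% ± 7.8 (adjusted p = 0.00216).

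Exon 4 of CDK10 was skipped almost only in Y36C cells under E7107 (this junction was named after its values were seen). At the acceptor of exon 5 the junction chr16:89757033-89758213 had 0.0% in all 6 WT DMSO samples, at most 2.22% in WT E7107 and at most 1.79% in Y36C DMSO. In Y36C E7107 it had 18.9%, 22.8% and 27.3%, with no overlap with any other group. It passed the filter only through the group in which it was high, so no test is given. The retained share at the same acceptor was 42.4% ± 5.3 in WT E7107 and 14.1% ± 4.3 in Y36C E7107. The exon 5 acceptor thus had much retention and little skipping in WT cells, and both in Y36C cells. Exon 4, like exon 2, has a length that is not a multiple of 3.

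In CDK2 the exons skipped in Y36C cells were exons 2 and 5. The junction that leaves out exon 2, chr12:56360909-56361832, had 6.97%, 7.57% and 11.7% in WT DMSO and 6.96%, 8.52% and 18.6% in WT E7107 at its 5′ end (adjusted p = 0.582). The Y36C samples rose from 4.53%, 7.32% and 8.98% to 21.9%, 24.5% and 28.8% (log odds of the interaction 1.25, SE 0.21, adjusted p = 3.05e-05). The junction that leaves out exon 5, chr12:56362733-56364827, named after its values were seen, rose in Y36C cells from 3.79%, 5.82% and 6.49% to 15.1%, 16% and 23.4%, while its WT samples had 4.35% to 8.96% under E7107 and 4.72% to 8.05% in DMSO. In WT cells the largest called rise was instead a junction over exons 2 to 5 together, from 0.0% in all samples to 1.02%, 2.10% and 5.39%. Like the junctions of CDK4 and CDK6 that were at or near 0 in DMSO, it was tested because it was above 0 throughout an E7107 group.

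CDK4 showed many junctions of low share in Y36C cells. Of 24 skipping rows of CDK4 tested there, 18 were called higher, where 50.7% of all skipping rows were. Of 14 tested in WT cells 4 were called higher and 4 lower, where 33.6% and 14% of all were. A row can pass the filter through the group in which it is high, and a junction can count at both of its ends. These counts therefore describe the tested rows only and are not a test of CDK4. The junction over exons 2 to 5, chr12:58143288-58145957, had at most 0.14% in either DMSO group, 1.18%, 1.43% and 2.06% in WT E7107 and 5.03%, 6.72% and 7.14% in Y36C E7107. Reads over exons 2 to 7 together were higher in WT, with 1.66%, 2.07% and 3.49% in WT E7107 and at most 0.52% in Y36C E7107. At the acceptor of exon 6 the whole skipping share went from 0.42% ± 0.27 to 1.76% ± 0.27 in WT cells and from 0.35% ± 0.23 to 10.2% ± 0.69 in Y36C cells. CDK4 skipped exon 2 less often under E7107 in WT cells, by 1.94 points at the acceptor of exon 3 (adjusted p = 2.02e-04).

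CDK6, which like CDK4 acts with D cyclins in G1, skipped exon 6 in Y36C cells, with 0.0%, 0.0% and 6.94% in DMSO and 6.06%, 7.86% and 17.4% in E7107. In WT E7107, 1 sample had 18.8% and the median was 0.0%, and the row did not pass the filter there. CDK1 skipped exon 2 in both genotypes, with medians of 0.0% in each DMSO group, 1.96% in WT E7107 and 3.78% in Y36C E7107. The largest called rise of CDK1 in WT cells was the junction over exon 5, from a median of 2.51% to 4.17% at its 3′ end (adjusted p = 0.0171), a small change whose groups overlap at the edges.

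**Figure D4:**
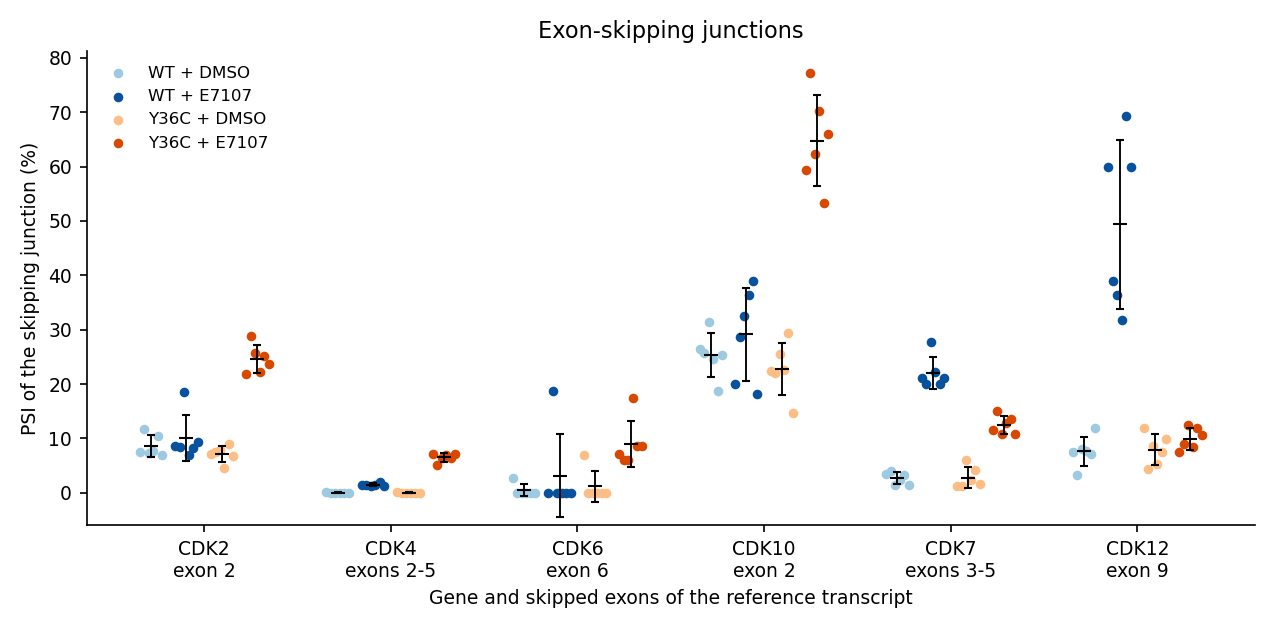
PSI (y axis, percent) of the skipping junction with the largest called rise in Y36C cells for CDK2, CDK4, CDK6 and CDK10 and in WT cells for CDK7 and CDK12 (x axis, with the exons left out), in the 4 groups. Points are samples and bars are mean ± SD (n = 6). CDK10 exon 2 reaches 53.3% to 77.2% in Y36C E7107, and CDK12 exon 9 reaches 31.8% to 69.2% in WT E7107.

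Among the transcriptional kinases, exon 9 of CDK12 was skipped in WT cells. The junction chr17:37667884-37673692 had 3.33%, 7.60% and 11.8% at its 5′ end in WT DMSO and 31.8%, 49.4% and 69.2% in WT E7107 (adjusted p = 1.71e-05). With Y36C it had 4.40%, 8.04% and 11.9% in DMSO and 7.56%, 9.71% and 12.5% in E7107, which overlap (adjusted p = 0.318), and the interaction was a log odds of -2.15 (SE 0.34, adjusted p = 1.51e-05). At the acceptor of exon 10, reads from exon 9 had a mean of 93.6% ± 1.9 in WT DMSO and 27.6% ± 15.3 in WT E7107, with 33.6% ± 14.8 retained and 37.8% ± 8.1 skipping. In Y36C E7107 88.9% ± 3.0 came from exon 9.

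CDK7 lost exons 3 to 5 in both genotypes. The junction chr5:68531281-68553869 had 1.34%, 2.76% and 4.05% at its 3′ end in WT DMSO and 20%, 21.1% and 27.8% in WT E7107 (adjusted p = 2.24e-07). With Y36C it rose from 1.16%, 2.00% and 6.08% to 10.8%, 12.2% and 15.0% (adjusted p = 4.55e-04), and the interaction had adjusted p = 0.0534. Skipping of exon 5 alone, named after its values were seen, was at 0.0% in every WT sample and had 5.41%, 9.96% and 13.5% at its 5′ end in Y36C E7107. No skipping row of CDK9, CDK11B or CDK13 passed the filter in any comparison.

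Counted by rows, each junction once at either end, 14 of 38 skipping rows tested were higher and 6 lower in WT cells, against 33.6% and 14% of all skipping rows tested. In Y36C cells 46 of 60 were higher and 0 lower, against 50.7% higher of all. The kinase genes hold 254 skipping rows, and most did not pass the filter. A row can pass it through the group in which it is high, so these counts describe the tested rows only. Without the filter 25 kinase rows were higher in WT cells, where 11992 of 204421 skipping rows over all genes were. Between the genotypes under E7107, 44 of 64 were higher and 11 lower in Y36C cells (44.1% and 19.3% of all). The interaction was called higher in 39 and lower in 8 of 64, against 34.8% and 16%. The other spliced rows, mostly the junctions between neighbouring exons, fell in 158 of 197 tested in WT cells (41.7% of all) and in 74 of 252 in Y36C cells (16.1% of all).

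The cell-cycle and transcriptional kinases were compared by medians without a test. In WT cells the median change in retention was 8.23 points over the 4 cell-cycle kinases and 33.2 points over the 5 transcriptional kinases, and CDK6 at 28.6 points lay above CDK7 at 15.7 and CDK12 at 20.7. In Y36C cells the medians were 0.74 and 0.04 points, and their order turned when CDK7 was left out or CDK10 was added. For the skipping share the WT medians were 1.00 and 2.66 points and the Y36C medians 3.04 and 0.26 points. All 4 cell-cycle kinases and 2 of 5 transcriptional kinases, CDK7 and CDK12, rose in skipping in Y36C cells, where 56.3% of all genes did.

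**Figure D5:**
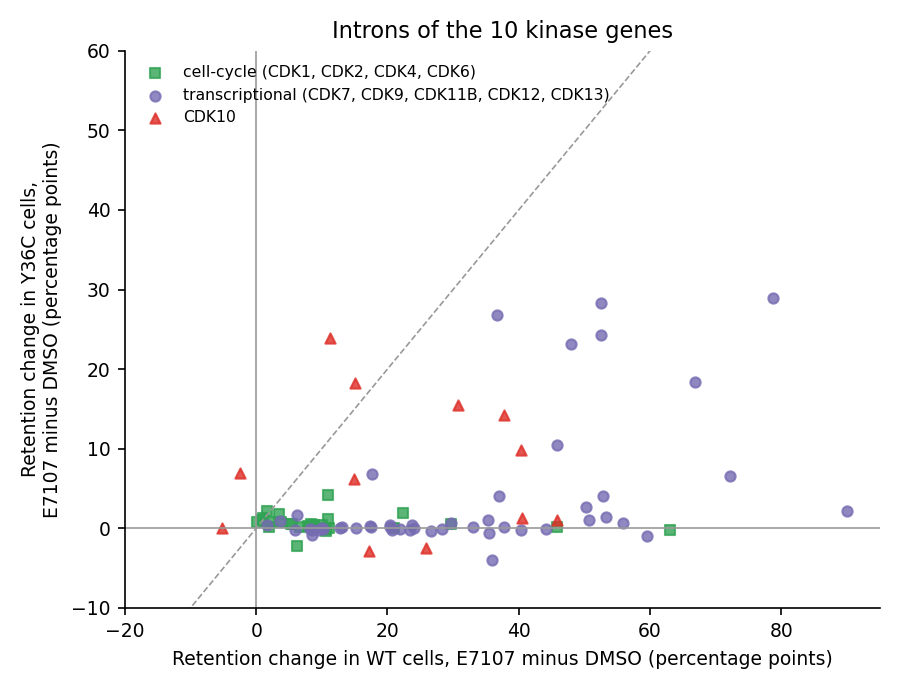
Change in retention, E7107 minus DMSO in percentage points, in WT cells (x axis) and Y36C cells (y axis) for 88 introns of the 10 kinase genes with reads at both ends in all 24 samples. Each point is an intron, the dashed line marks equal change, and CDK10 is drawn as triangles. CDK10 introns 7, 8, 9 and 10 and CDK4 introns 2 to 5 lie above the dashed line.

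Across the introns, the change in Y36C cells went with base composition and length more than the change in WT cells did. Over 88 introns of 10 genes, Spearman's rho of the change with GC content was 0.61 in Y36C and 0.22 in WT cells, and with intron length it was -0.60 and 0.0017. Without CDK11B the values were 0.54 and 0.02 for GC content and -0.61 and 0.14 for length, over 72 introns. These are descriptions, since introns of a gene share its libraries, depth and base composition. Of 50 introns with a GC content under 50%, 46 rose by at least 5 points in WT and 0 in Y36C cells. Of 38 introns with 50% or more, 30 did so in WT and 16 in Y36C cells, and without CDK11B these were 16 and 9 of 23. The 16 introns that rose in Y36C cells all lie in CDK9, CDK10 and CDK11B, so this pattern rests on few genes. The retained introns of CDK9 and CDK10 printed above belong to the GC-rich group, but CDK9 intron 4 rose by only 2.22 points in Y36C cells.

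The genes most like CDK10 over the 8 values of mean retention and mean skipping in the 4 groups, among 9513 genes, were NEIL1, HDAC10, JMJD8, PCED1A and SLC29A2, at Euclidean distances of 7.66 to 11 percentage points. The nearest, NEIL1, had mean retention of 29.7% and 46.3% in WT DMSO and E7107 samples, and 27.4% and 33.6% in the Y36C ones. Its skipping share of 3.62% in Y36C E7107 was lower than the 7.74% of CDK10. That of PCED1A was also lower, at 5.11%, while HDAC10, JMJD8 and SLC29A2 had 7.84%, 8.25% and 9.36%. The skipping share in Y36C E7107 is among the 8 values by which these genes were chosen. Their likeness to CDK10 in it therefore follows from the choice and is not a separate result.

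The other genes of the pathway were read as lists. Of 11 other cyclin-dependent kinases, 8 were measured, and mean retention rose in 6 in WT cells and in 4 in Y36C cells (CDK5, CDK11A, CDK16 and CDK18), against the 72.1% and 47.2% of all genes given above. CDK5 and CDK18 were higher in Y36C than in WT cells under E7107, by 1.51 and 6.75 points, and the other 6 were lower, where 15.1% and 64.9% of all genes were. Skipping rose in 2 of 8 in WT cells and fell in 1, against 25.8% and 5.47% of all genes, and rose in 5 in Y36C cells, against 56.3%. Of 23 cyclins, inhibitors and other partners, 21 were measured for retention, with 20 higher in WT cells and 13 in Y36C cells (72.1% and 47.2% of all genes), and medians of 24.7 and 1.15 points. The largest WT change was in CCNL2, a cyclin partner of CDK11, at 71.0 points, and cyclin Q rose by 11.7 points. The small CDK-binding protein CKS1B changed by -0.39 points (adjusted p = 0.381). For skipping, 16 partners were measured and 9 rose in each genotype, where 25.8% of all genes rose in WT and 56.3% in Y36C cells.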

How the data were processed

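RNA sequencing of poly(A)-selected RNA was done on 24 samples in 4 groups of 6. The deposited values are percent spliced in, made by the authors from reads aligned with STAR to hg19 (per the submitters' processing notes, version not given in the sources used here). Each percent is the share of reads at 1 splice site, so the rows of a site sum to 100, or to 0 where it had no reads. The files hold no counts, and depth is known only as sites with reads. Of 1830076 rows, 6433 without a strand or on the mitochondrial genome were left out.

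Rows were assigned to genes and introns with GENCODE v44lift37 (GRCh37) and the canonical transcript. Rows with reads at the site in every sample of a fit, and with a value above 0 throughout 1 or more groups of 6, were tested with limma 3.58.1 in R 4.3.3 on the natural-log odds after adding 1 percentage point, with Benjamini-Hochberg adjustment over all rows tested and a threshold of 0.05. Gene values (mean boundary PSI, and mean skipping share at 3′ splice sites, with at least 2 sites) were tested in the same way over all genes. A log odds in the text is a natural log. The interaction is the E7107 change in Y36C minus that in WT cells. Scripts ran in Python 3.11.15 and were tested on simulated data.

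For each kinase the boundary with the largest change called in WT cells, the boundary with the largest rise called in Y36C cells and the skipping junction with the largest rise called in each genotype were named, along with every CDK10 intron. Members and lists were chosen with earlier results of these data known. Alternatives were other offsets, a percent response, no value filter, a minimum change, medians over sites, a replicate block and samples left out.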

Additional observations from a re-analysis of the deposited data

Results flagged for a closer look

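The change under E7107 differed between the genotypes in the test of the difference itself for 14 gene values. For mean retention, the Y36C change minus the WT change was -9.73 points in CDK1, -5.65 in CDK2, -28.3 in CDK6, -15.7 in CDK7, -58.8 in CDK9, -15.0 in CDK10, -29.0 in CDK11B, -20.8 in CDK12 and -33.5 in CDK13. For mean skipping it was 4.88 points in CDK2, 3.21 in CDK4, 5.36 in CDK10, -4.35 in CDK12 and -6.08 in CDK13.

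A single sample was flagged as apart from the other 5 of its group in 11 of 79 sets of values. For mean retention these samples were at 0.769% for CDK12 in WT DMSO, 29.0% for CDK7 in WT E7107 and 0.912% for CDK7 in Y36C E7107. For mean skipping they were at 0.256%, 0.247% and 0.0444% for CDK11B in WT DMSO, Y36C DMSO and Y36C E7107, 25.0% for CDK13 in WT E7107, 3.74% for CDK2 in WT DMSO, 0.451% and 4.98% for CDK6 in WT DMSO and Y36C E7107, and 0.272% for CDK9 in WT DMSO. Without that sample the Y36C E7107 mean of CDK6 was 2.55% ± 0.35 (SD, n = 5) in place of 2.95%.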

How the results depend on the processing

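Of the kinase results recomputed under other settings, 152 of the main counts and values kept their direction and stayed within 1.5 times, 14 moved and 2 turned in direction. With a minimum change of 10 percentage points there remained 4 skipping rows higher and 1 lower in WT cells in place of 14 and 6, 21 boundaries and 9 skipping rows higher in Y36C cells in place of 41 and 46, 9 skipping rows higher and 2 lower in Y36C than in WT cells under E7107 in place of 44 and 11, and 10 higher and 2 lower for the interaction in place of 39 and 8. Over all skipping rows tested, that minimum left 2950 higher and 1034 lower of 24597 in WT cells, and 5188 higher of 32455 in Y36C cells. It left 9870 higher of 74835 boundaries in Y36C cells. For skipping rows between the genotypes under E7107 it left 5247 higher and 2397 lower of 33778, and for the interaction 4715 and 2183 of 36337. Without the filter on values above 0, 25 kinase skipping rows were higher in WT cells, and 11992 of 204421 over all. The number of kinases with a lower skipping interaction was 1 in place of 2 with percent as the response, and ranged from 1 to 2 when samples chosen after seeing the data were left out. The transcriptional minus cell-cycle difference of median retention in WT cells was 19.71 points with CDK10 among the transcriptional kinases and 18.75 points without CDK11B, against 25.0, and in Y36C cells it turned from -0.701 to 2.842 points with CDK10 and to 2.809 points without CDK7. The cause was not tested. Retention in Y36C cells at the named boundaries of CDK1, CDK11B and CDK12 was lost under the alternatives with adjusted p from 0.057 to 0.13. The files give no read depth, which limits the precision of a PSI at sites with few reads.

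Replicate numbers did not pair the samples: over 36 pairs with the same number, the correlation of deviations from the group means lay between -0.00548 and 0.00586. With the replicate number as a block, 124 kinase boundaries were higher in WT and 33 in Y36C cells, and 46 skipping rows were higher in Y36C cells. Over all rows the block left 71670 of 99025 boundaries higher in WT and 18320 of 74835 in Y36C cells. Of all skipping rows, 14125 of 32455 were higher in Y36C cells. No kinase count moved by more than 1.5 times. Skipping of CDK12 in Y36C cells was then not called (adjusted p = 0.0529), nor were the named Y36C boundaries of CDK1 and CDK12 (adjusted p = 0.0904 and 0.0608) or, between genotypes under E7107, CDK4 retention and CDK13 skipping (adjusted p = 0.0767 and 0.0698).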
